A study of Mus musculus with 15 samples.

Results

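Caerulein at 100 pM was compared directly with TLC-S at 62.5 uM in isolated mouse pancreatic acini, the lower dose of each stimulus in the series. The comparison used 6 of the 15 small RNA libraries, 3 for each stimulus, taken by their labels and by no measured value. All acini came from C57BL/6 mice aged 7 to 8 weeks, with no transgene or deletion named, and the labels give no duration of exposure. The other libraries were 3 untreated controls, 3 at caerulein 100 nM and 3 at TLC-S 250 uM, which shared the estimate of spread but did not enter the contrast. The submitters call 100 pM the physiological and 100 nM the pathological dose of caerulein, and give no such name to a TLC-S dose. The doses of caerulein and TLC-S are not matched to each other, so each difference belongs to these particular doses. Each library was made from 1 ug of pooled RNA, with pools described as coming from 3 independent acinar preparations. The labels do not say whether libraries of a group held separate preparations, so every p-value below rests on the spread among the libraries alone, part of which may be technical.

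Acinar cells make the digestive enzymes of the pancreas and release them on hormonal demand. Caerulein is a peptide analogue of the gut hormone cholecystokinin. It acts on cholecystokinin receptors that raise cytosolic calcium, and it drives enzyme secretion at low concentrations and injures the cell at high ones. TLC-S, taurolithocholic acid sulfate, is a sulfated bile acid used to model pancreatitis of biliary origin. A miRNA represses mRNAs mainly through its seed, bases 2 to 8 counted from the 5′ end, and miRNAs with the same seed share most of their predicted targets. Each hairpin precursor yields a 5p and a 3p arm, of which 1 is usually retained in larger amounts.

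The 6 libraries held 1095757 to 2281635 counts of mature miRNAs, within a range of 535473 to 5087728 over all 15. The table lists 1915 mature miRNAs. Of these, 715 were counted at least once in the 6 libraries and 351 passed the filter on low counts. Levels are given below as CPM, counts relative to library size, after scaling between libraries by the trimmed mean of M-values (TMM), in the order of replicates 1, 2 and 3, and differences are log2 of caerulein 100 pM over TLC-S 62.5 uM. A miRNA is said to have passed where its Benjamini-Hochberg adjusted p was under 0.05 in edgeR's quasi-likelihood test. The labelled cell type was checked first. The 8 pancreatic acinar miRNAs on the marker list (both arms of miR-148a, miR-217, miR-216a and miR-216b) took 33.6% to 49.3% of counts with caerulein and 33.9% to 36.4% with TLC-S. In the controls they took 27.2% to 58.2%. miR-148a-3p alone was the most abundant miRNA in all 6 libraries. Leukocyte markers took 0.00355% to 0.00528% with caerulein and 0.00583% to 0.00714% with TLC-S. Stellate and mesenchymal markers took 0.999% to 1.23% and 1.22% to 1.76%, and erythrocyte markers 0.00880% to 0.0123% and 0.0155% to 0.0210%. Of the 7 liver and muscle markers, miR-133b-3p, miR-208a-3p and miR-499-5p were at 0 in all 6 libraries, and the other 4 held 51 to 221 counts each, summed over the 6. All these shares are of a library's total counts, without TMM scaling. With library totals as the scale, the median log2 difference of all tested miRNAs was -0.34. After TMM scaling, the 3 tested leukocyte markers, miR-142a-5p, miR-223-3p and miR-150-5p, differed by 0.49, -0.10 and -0.26, each with overlapping libraries. In these bulk libraries, fewer cells of a type and less of its RNA per cell cannot be told apart.

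RefSeq (GRCm38.p6) gave a mature sequence for 312 of the 351 tested miRNAs. The sequences that the results turn on follow, 5′ to 3′, with the seed in capitals. The first set holds miRNAs that passed the test between the lower doses.
miR-3968: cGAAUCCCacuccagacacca
miR-216a-3p: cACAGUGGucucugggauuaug
miR-195a-5p: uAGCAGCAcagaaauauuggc
The second set shares the seed AGCAGCA with miR-195a-5p, so that these miRNAs and miR-195a-5p can be read as a group.
miR-322-5p: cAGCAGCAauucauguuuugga
miR-15b-5p: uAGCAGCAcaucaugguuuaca
miR-16-5p: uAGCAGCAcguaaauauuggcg
miR-15a-5p: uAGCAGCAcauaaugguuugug
miR-497a-5p: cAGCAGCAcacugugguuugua
The third set holds the other arm of the miR-216a hairpin and 3 miRNAs that lay just outside the threshold. Neither arm of miR-216a has the seed of the other.
miR-216a-5p: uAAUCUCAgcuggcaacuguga
miR-217-3p: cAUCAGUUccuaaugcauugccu
miR-30e-3p: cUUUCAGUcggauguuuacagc
miR-335-5p: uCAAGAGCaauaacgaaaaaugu

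Few miRNAs separated the stimuli, and most of these were higher with caerulein. The test called 5 of 351 miRNAs (1.42%), 4 of them higher with caerulein 100 pM (1.14%) and 1 higher with TLC-S 62.5 uM (0.285%). miR-3968, miR-30b-5p, miR-216a-3p and miR-5099 were higher with caerulein, and miR-195a-5p was higher with TLC-S. At an unadjusted p under 0.05 there were 48 (13.7%), 30 higher with caerulein (8.55%) and 18 higher with TLC-S (5.13%). The libraries of the stimuli did not overlap for 57 (16.2%). The log2 differences of all 351 had a median of -0.00, with quartiles at -0.32 and 0.39, and 174 of them (49.6%) were above 0 and 177 (50.4%) below. The median 95% interval reached 0.73 on either side of the estimate. Scaling by library totals split the calls into 2 higher with caerulein and 2 higher with TLC-S, in place of 4 and 1. The total was 11 without caerulein replicate 1 and 10 without TLC-S replicate 3, and 2 or 3 without any other single library of these 6.

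**Figure D1:**
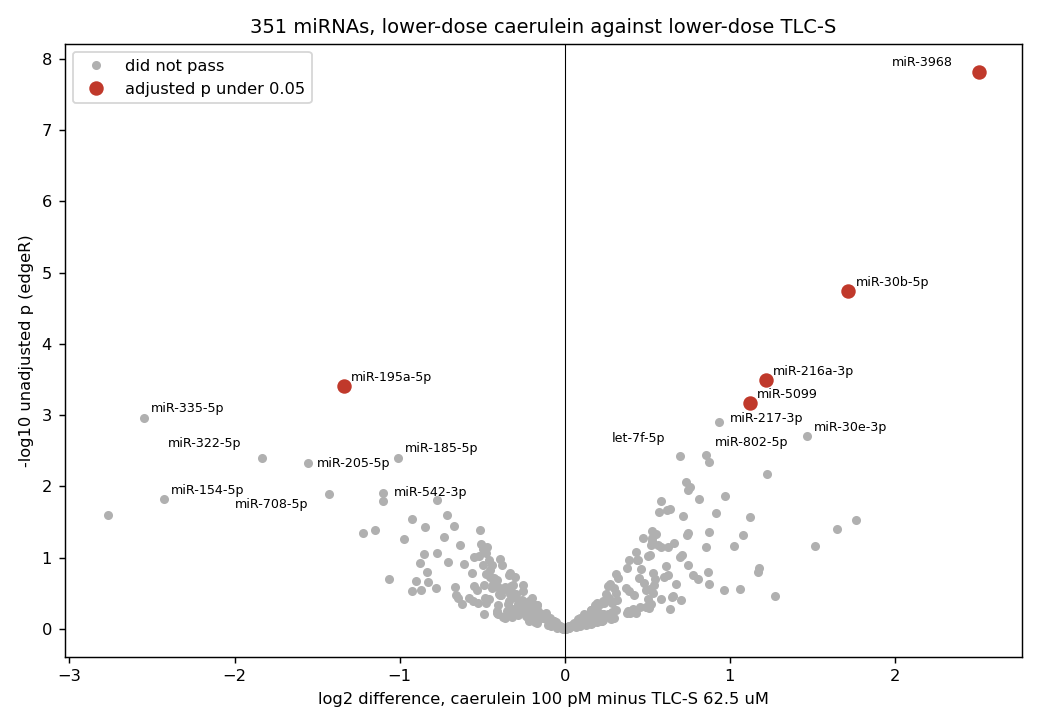
Each point is 1 of the 351 tested miRNAs, with the log2 difference (caerulein 100 pM minus TLC-S 62.5 uM) on the horizontal axis and -log10 of the unadjusted edgeR p on the vertical axis. Red points passed at an adjusted p under 0.05: 4 lie to the right (higher with caerulein) and miR-195a-5p to the left, with miR-3968 farthest from the rest.

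Among the 5 that passed, miR-3968 showed the widest gap. It lies at chr11:115447961-115448060 on the minus strand (GRCm38), opposite an exon of Trim80. Its level was 66.0, 70.8 and 55.2 CPM with caerulein and 11.6, 11.7 and 10.3 CPM with TLC-S. The control libraries held 40.7, 41.5 and 33.0 CPM, so that every caerulein library lay above and every TLC-S library below all 3 controls. The mean was 64.0 ± 8.01 CPM (SD, n = 3) against 11.2 ± 0.743 CPM (SD, n = 3). This was a 5.69-fold difference (95% interval 3.67 to 8.82), or 2.51 on the log2 scale (SE 0.31, adjusted p = 5.36e-06). The counts behind it were 115, 115 and 48 with caerulein and 24, 29 and 15 with TLC-S. It passed under all 18 alternative settings tried.

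miR-30b-5p belongs to the miR-30 family, abundant epithelial miRNAs that share a 5p seed. Its hairpin lies at chr15:68337415-68337510 on the minus strand, in an exon of the noncoding transcript Gm26621. It stood at 2186, 2240.2 and 3519.8 CPM with caerulein and at 596, 1026 and 792 CPM with TLC-S. The lowest caerulein library thus held more than any TLC-S library, while the controls, at 1539.9, 1332 and 3879.9 CPM, overlapped the caerulein group and lay above the TLC-S group. The difference was 3.29-fold (95% interval 2.07 to 5.24), or 1.72 on the log2 scale (SE 0.33, adjusted p = 0.0032), and it too passed under all 18 alternatives. The other arm, miR-30b-3p, differed by 0.48 (SE 0.39, adjusted p = 0.669). miR-30d-5p, whose hairpin lies 3698 bases from that of miR-30b, differed by -0.30 (SE 0.22, adjusted p = 0.621).

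miR-216a-3p comes from the acinar miR-216a hairpin at chr11:28757012-28757083 on the plus strand, in an intron of the noncoding RNA Gm12082. Its level was 449.9, 757 and 595 CPM with caerulein and 334, 270.1 and 169.5 CPM with TLC-S. The groups did not overlap, and the controls, at 478, 445 and 581 CPM, overlapped the caerulein libraries and lay above the TLC-S libraries. The difference was 2.33-fold (95% interval 1.53 to 3.53), or 1.22 on the log2 scale (SE 0.29, adjusted p = 0.0345). The call was lost without caerulein replicate 2 (0.98, adjusted p = 0.330), without caerulein replicate 3 (1.23, adjusted p = 0.103), without TLC-S replicate 2 (1.25, adjusted p = 0.121) and without TLC-S replicate 3 (1.01, adjusted p = 0.0774). It was also lost with library totals (0.85, adjusted p = 0.210) and in the 6 libraries alone (1.12, adjusted p = 0.148).

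miR-5099 lies at chr12:36816205-36816278 on the plus strand, outside other annotated genes. It stood at 144, 229.6 and 277 CPM with caerulein and at 91.3, 82.8 and 125 CPM with TLC-S, so that the groups were separate, with the lowest caerulein library next to the TLC-S range. The controls held 118, 148 and 184 CPM and overlapped both groups. The difference was 2.18-fold (95% interval 1.44 to 3.29), or 1.12 on the log2 scale (SE 0.29, adjusted p = 0.0473). This call was the least stable of the 5: it passed under 5 of 18 alternatives, with log2 differences from 0.72 to 1.35 and adjusted p from 0.00487 to 0.330. Of single libraries, leaving out caerulein replicate 2 or 3, or TLC-S replicate 1 or 2, ended it.

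miR-195a-5p, of the miR-15/16 family of cell cycle repressors, was the miRNA that passed with the higher level under TLC-S. Its hairpin lies at chr11:70235042-70235135 on the plus strand, outside other annotated genes. The caerulein libraries held 49.3, 27.7 and 49.4 CPM and the TLC-S libraries 142, 95.7 and 79.9 CPM. All 3 controls, at 71.7, 85.2 and 63.1 CPM, were above the caerulein group, and they overlapped the TLC-S group. The level was 2.53-fold higher with TLC-S (95% interval 1.58 to 4.04), a log2 difference of -1.34 (SE 0.33, adjusted p = 0.0345). The call was lost without caerulein replicate 2 (-1.14, adjusted p = 0.290) or 3 (-1.48, adjusted p = 0.0602), without TLC-S replicate 1 (-1.12, adjusted p = 0.178) or 2 (-1.43, adjusted p = 0.0501), and in the 6 libraries alone (-1.45, adjusted p = 0.0770). miR-497a-5p, whose hairpin lies 242 bases away, differed by -0.39 (SE 0.39, adjusted p = 0.754).

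**Figure D2:**
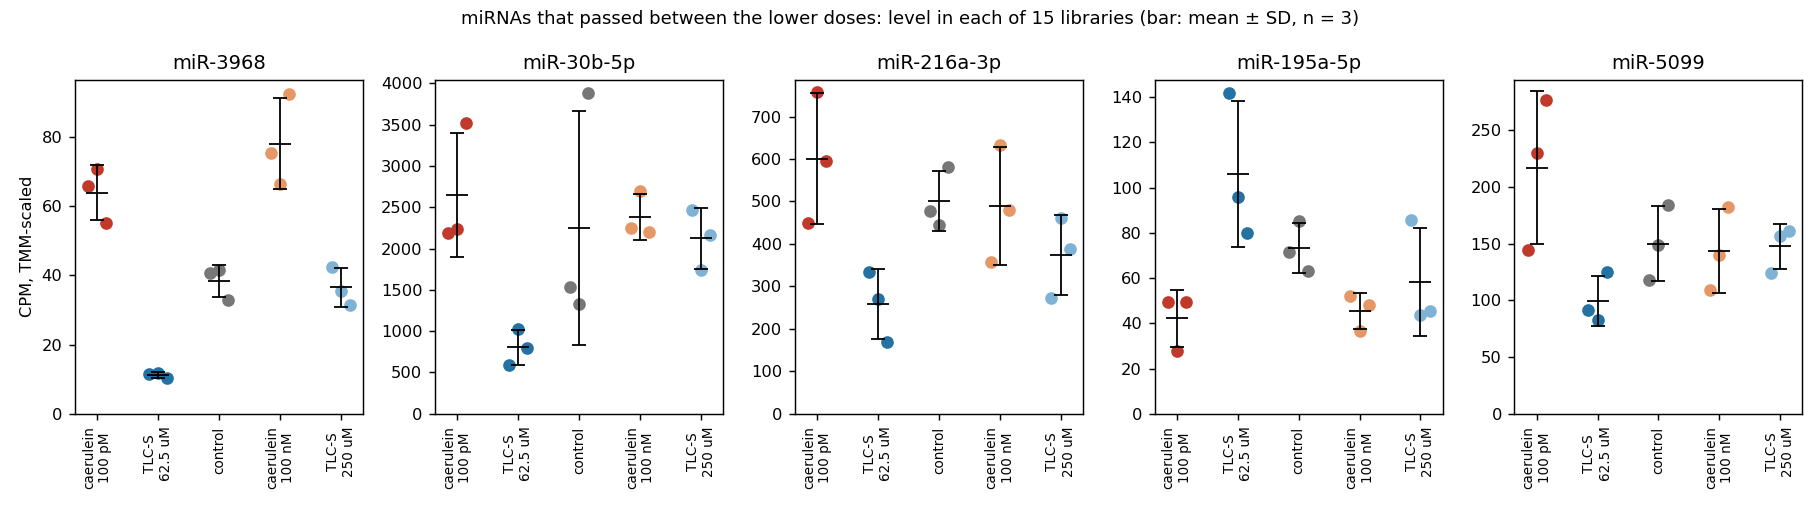
Level in CPM (TMM-scaled, linear axes from 0) of the 5 miRNAs that passed, in each of the 15 libraries, by group; points are libraries and bars are the mean ± SD of 3. The caerulein 100 pM and TLC-S 62.5 uM libraries do not overlap in any panel, and for miR-3968 the TLC-S 62.5 uM libraries, at 10.3 to 11.7 CPM, lie below every other library.

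The same 5 miRNAs can be set beside the untreated acini, with the reminder that both comparisons use the same 3 control libraries. For miR-3968, TLC-S 62.5 uM minus control was -1.77 (SE 0.30, adjusted p = 0.00152) and caerulein 100 pM minus control was 0.74 (SE 0.28, adjusted p = 0.722). For miR-30b-5p the values were -1.48 (SE 0.32, adjusted p = 0.0191) with TLC-S and 0.23 (SE 0.32, adjusted p = 0.942) with caerulein. miR-216a-3p stood at -0.96 (SE 0.29, adjusted p = 0.171) and 0.26 (SE 0.29, adjusted p = 0.942). miR-195a-5p stood at 0.53 (SE 0.31, adjusted p = 0.794) with TLC-S and -0.81 (SE 0.33, adjusted p = 0.722) with caerulein. Apart from TLC-S against control for miR-3968 and miR-30b-5p, none of these single-stimulus values passed, and the remaining called miRNA, miR-5099, gave -0.60 with TLC-S (adjusted p = 0.648) and 0.53 with caerulein (adjusted p = 0.832).

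The pancreatic acinar list lay on the caerulein side. miR-216a, miR-217 and miR-216b lie near each other on chromosome 11 and are characteristic of acinar tissue, and miR-148a is the dominant miRNA of the pancreas. All 8 listed arms were tested, and all 8 had log2 differences above 0, against 174 of 351 (49.6%) over all miRNAs. They are paired arms of the same hairpins, so these are not counts of separate measurements. The median was 0.72, against -0.00 for all 351, and it was 0.48 without caerulein replicate 2. Only miR-216a-3p passed. With miR-216a-3p counted, unadjusted p was under 0.05 for 4 of the 8, against 8.55% of all miRNAs in that direction. Likewise 4 had caerulein libraries wholly above TLC-S libraries, against 9.12%. Of the 7 arms other than miR-216a-3p, all 7 lay above 0 (median 0.71), and in 3 the groups did not overlap. Scaled by library totals, 6 of 8 lay above 0, with miR-216a-5p at -0.05 and miR-216b-5p at -0.10. That scaling also moved the median of all miRNAs to -0.34.

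Within the list, miR-217-3p came closest to the threshold after miR-216a-3p. It stood at 259.9, 374 and 308 CPM with caerulein and at 137, 156 and 201 CPM with TLC-S, with no overlap. The difference was 0.93 (SE 0.26, adjusted p = 0.0625). miR-217-5p, the major arm, held 77408, 156979 and 126102 CPM against 67901, 62212 and 86861 CPM. The first caerulein library lay inside the TLC-S range, and the difference was 0.73 (SE 0.26, adjusted p = 0.188). miR-216b-3p differed by 0.87 (SE 0.28, adjusted p = 0.118). miR-148a-3p held 238120.0, 460283 and 457760.0 CPM against 260935, 255148 and 190522 CPM, a difference of 0.71 with a wide error (SE 0.40, adjusted p = 0.453). Here too caerulein replicate 1 sat among the TLC-S libraries. The controls held 157628, 157905 and 687528 CPM and ran past both groups on either side. The 5p arms of the miR-216 hairpins gave the smallest differences of the list: miR-216a-5p differed by 0.31 (SE 0.22, adjusted p = 0.595) and miR-216b-5p by 0.27 (SE 0.23, adjusted p = 0.675).

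Markers of other cells were read beside the acinar list. Of the 10 stellate and mesenchymal miRNAs, all tested, 9 had log2 differences below 0 (median -0.22), none passed, and 4 had TLC-S libraries wholly above caerulein libraries, against 7.12% of all miRNAs. miR-199a-3p, typical of mesenchymal cells, stood at 637, 626 and 719 CPM with caerulein and at 773, 881 and 846 CPM with TLC-S, a difference of -0.33 (SE 0.23, adjusted p = 0.590). miR-199b-3p has the same mature sequence, so the counting could only split reads between them. Both are among the 4 and the 9, so these are not counts of separate measurements. Without caerulein replicate 1 the list split into 5 above and 5 below 0, with a median of -0.04. Endothelial miR-126a-3p and miR-126a-5p differed by 0.21 and 0.13, and by -0.16 and -0.24 when scaled by library totals. Of the 5 erythrocyte markers, 4 were tested, with 2 above and 2 below 0, a median of -0.03 and none passing. The most abundant of them, miR-451a, held 58.5, 54.2 and 74.7 CPM with caerulein and 87.9, 146 and 84.8 CPM with TLC-S, with no overlap, and differed by -0.78 (SE 0.30, adjusted p = 0.216), while the other 3 ran from -0.08 to 0.38. Of the 12 islet and neuroendocrine miRNAs, 9 were tested and 7 lay above 0 (median 0.53), none passing, and the median was 0.35 without TLC-S replicate 1, 0.29 without caerulein replicate 1 and 0.31 without caerulein replicate 2. The abundant islet miR-375-3p differed by 0.26 (SE 0.22, adjusted p = 0.689) and by -0.11 when scaled by library totals, and its other arm, miR-375-5p, was at 0 in all 6 libraries. Whether the mix of cells had a part in the acinar difference was not tested.

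**Figure D3:**
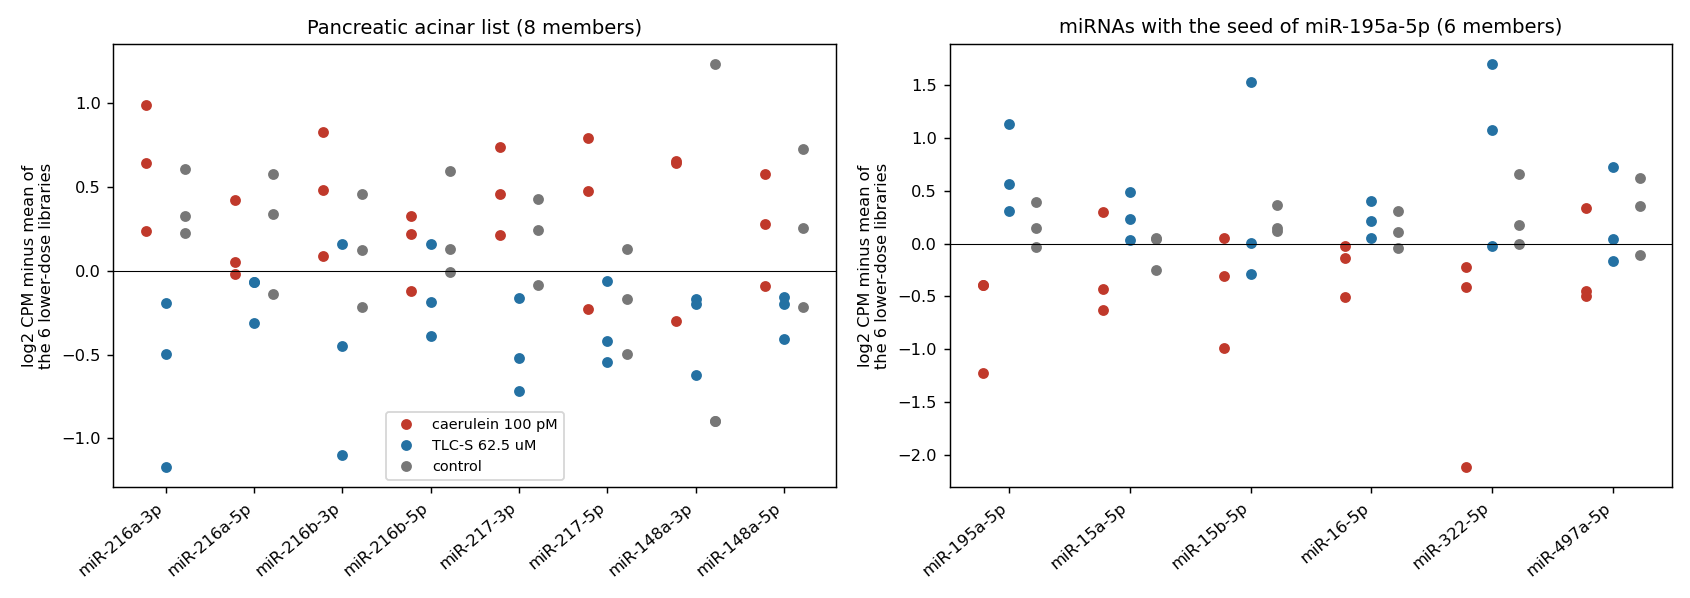
Log2 CPM of each member minus its mean over the 6 lower-dose libraries, for the 8 acinar miRNAs (left) and the 6 miRNAs with the seed of miR-195a-5p (right); each point is a library, with controls in grey. Caerulein libraries lie mostly above TLC-S libraries on the left and mostly below them on the right. Beside miR-216a-3p, which passed, they are fully separate for 3 of the 7 other acinar miRNAs (9.12% of all miRNAs in that direction). Beside miR-195a-5p itself, they are fully separate for 2 of the 5 others on the right (7.12%).

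The miR-30 family lay mostly on the same side, but its arms differed among themselves. miR-30 miRNAs are epithelial miRNAs with roles in differentiation and apoptosis. All 11 listed arms were tested. Of these, 8 lay above 0 and 3 below, with a median of 0.52, and miR-30b-5p was the only arm that passed. With miR-30b-5p counted, unadjusted p was under 0.05 for 5 arms, all with the higher level under caerulein (8.55% of all miRNAs). In 4 the groups did not overlap (9.12%). Of the 10 arms other than miR-30b-5p, 7 lay above 0 and 3 below (median 0.52), and in 3 the groups did not overlap. miR-30e-3p stood at 31.6, 80.0 and 78.1 CPM with caerulein and at 14.5, 26.9 and 26.9 CPM with TLC-S. Its lowest caerulein library was above every TLC-S library, and it differed by 1.46 (SE 0.42, adjusted p = 0.0858). miR-30c-5p held 1579.7, 1491 and 1979 CPM against 1103, 1217 and 1079 CPM, again with no overlap, and differed by 0.57 (SE 0.24, adjusted p = 0.272). miR-30c-2-3p differed by 0.64 (SE 0.26) and miR-30a-3p by 0.75 (SE 0.35), and neither passed. The most abundant 5p arms gave values on the other side of 0 or at it. miR-30a-5p, the most abundant, differed by -0.06 (SE 0.21), miR-30d-5p by -0.30 (SE 0.22) and miR-30e-5p by -0.31 (SE 0.26). The family's summed share of library totals, without TMM scaling, was 3.78% to 4.87% with caerulein and 5.52% to 5.98% with TLC-S.

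The miRNAs that share the seed AGCAGCA lay on the TLC-S side. This family, named for miR-15 and miR-16, represses cyclins and the survival gene Bcl2. miR-195a-5p, one of its members, had already passed and had led to the group, so its own value is no separate evidence. The other 5 tested members with a RefSeq sequence all had log2 differences below 0, against 50.4% of all miRNAs. Their median was -0.45, and it was -0.36 without caerulein replicate 2 and -0.78 without caerulein replicate 1. Scaled by library totals it was -0.77, where the median of all miRNAs was -0.34. In 2 of the 5, miR-322-5p and miR-16-5p, the TLC-S libraries lay wholly above the caerulein libraries, against 7.12% of all miRNAs. miR-322-5p held 12.0, 3.69 and 13.8 CPM with caerulein and 52.1, 33.8 and 15.8 CPM with TLC-S. The groups did not overlap but the third TLC-S library lay next to the caerulein range, and the difference was -1.84 (SE 0.58, adjusted p = 0.116). miR-16-5p, the most abundant member, held 327, 235 and 302 CPM against 439, 387 and 347 CPM, with no overlap and a difference of -0.44 (SE 0.28, adjusted p = 0.511). miR-15b-5p differed by -0.97 (SE 0.48), miR-15a-5p by -0.45 (SE 0.31) and miR-497a-5p by -0.39 (SE 0.39). In these 3 the libraries overlapped and the test was not passed. No member changed sign in any of the 18 alternatives.

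Seeds were grouped only for the 312 tested miRNAs with a RefSeq sequence, which left out miR-30d-5p and miR-30b-5p, which passed. Of the 12 seeds shared by at least 3 of them, 5 had every member below 0 and none had every member above 0. Beside AGCAGCA these were the seeds of miR-181a-5p (ACAUUCA, 4 members, median -0.28), miR-99a-5p (ACCCGUA, 3 members, median -0.13), miR-29a-3p (AGCACCA, 3 members, median -0.16) and miR-125b-5p (CCCUGAG, 3 members, median -0.90), with no member passing and single values as near 0 as -0.00 for miR-29c-3p. The last had the largest differences of these 4, and its members were described after their values were seen. They, miR-125b-5p, miR-125a-5p and miR-351-5p, differed by -0.93 (SE 0.40), -0.73 (SE 0.36) and -0.90 (SE 0.71). For miR-125b-5p, a regulator of p53 and apoptosis genes, the TLC-S libraries ran from 236 to 1068 CPM and the caerulein libraries from 212 to 391 CPM, so that the groups overlapped. Without TLC-S replicate 1 the median of the seed group was -0.41, and without caerulein replicate 2 it was -0.59. The miR-17-92 cluster, whose products promote proliferation, had 7 of 10 listed arms tested, all 7 below 0 (median -0.43), with none passing. That median was -0.21 without caerulein replicate 2 and -0.26 without TLC-S replicate 1, each with 1 arm above 0, and it was -0.72 without caerulein replicate 1 and -0.69 without TLC-S replicate 3. The X-linked cluster of miR-322, miR-503, miR-542 and miR-450 had 7 of 10 tested, 5 below 0 (median -0.46). This cluster had a median of -0.36 without TLC-S replicate 1, -0.38 without caerulein replicate 2 and -0.99 without caerulein replicate 3. Its miR-542-3p stood at 18.4, 11.7 and 10.3 CPM with caerulein and at 34.8, 19.7 and 34.5 CPM with TLC-S, a difference of -1.10 (SE 0.41, adjusted p = 0.216). The imprinted Dlk1-Dio3 locus, rich in miRNAs, had 23 of 54 listed arms above the low-count filter, with 17 of them below 0 (median -0.34) and none passing. Without caerulein replicate 1 there were 14 below and 9 above (median -0.12), and without TLC-S replicate 2 likewise 14 and 9 (median -0.21).

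**Figure D4:**
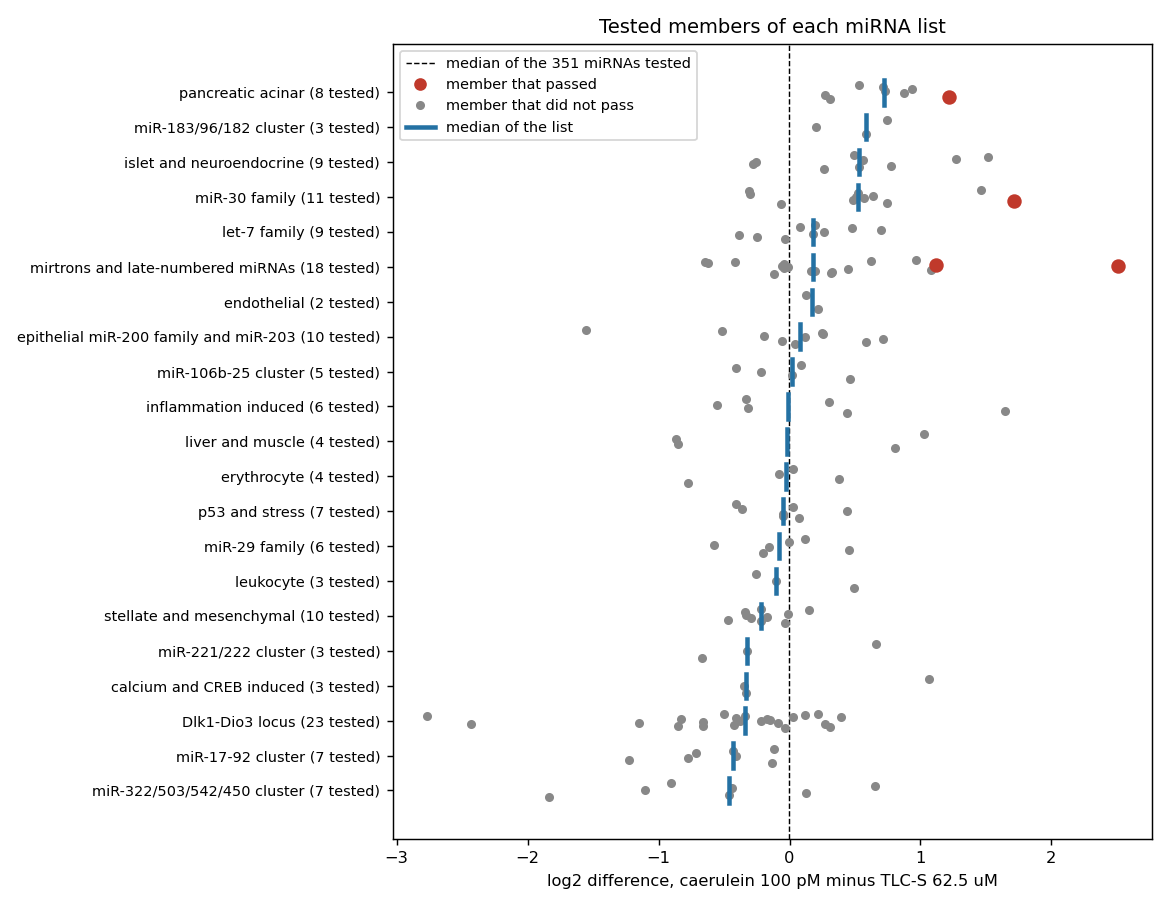
Log2 difference (caerulein 100 pM minus TLC-S 62.5 uM) of every tested member of each of the 21 miRNA lists; grey and red points are members that did not and did pass, blue ticks are list medians and the dashed line is the median of all 351. The acinar list has all 8 members to the right of 0 and the miR-17-92 cluster all 7 to the left, 6 of 7 without caerulein replicate 2 or without TLC-S replicate 1.

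Several single miRNAs came near the threshold. miR-335-5p, whose hairpin lies in an intron of the imprinted gene Mest, held 0, 9.23 and 2.30 CPM with caerulein and 25.1, 18.9 and 26.9 CPM with TLC-S. The controls, at 2.42, 7.48 and 4.30 CPM, resembled the caerulein libraries, and every TLC-S library lay above all others of these 3 groups. The difference was -2.55 (SE 0.69, adjusted p = 0.0625), on 0, 15 and 2 counts against 52, 47 and 39. It passed under 6 of the 17 alternatives that tested it. miR-802-5p, a miRNA linked to glucose metabolism, held 4613, 3537 and 3328 CPM against 1307, 2370.3 and 2675 CPM and differed by 0.85 (SE 0.27, adjusted p = 0.116). let-7f-5p, of the let-7 family that restrains proliferation, held 39731, 45061 and 41934 CPM against 25494, 23934 and 28647 CPM. Every caerulein library lay above every TLC-S library, and the difference was 0.70 (SE 0.22, adjusted p = 0.116). Of the 9 let-7 arms listed, 6 lay above 0 and 3 below, none passing, and let-7c-5p differed by -0.38 (SE 0.24).

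On the TLC-S side, miR-185-5p differed by -1.01 (SE 0.32, adjusted p = 0.116), with 763, 444 and 448 CPM against 1396, 757 and 1183 CPM. Its highest caerulein library passed its lowest TLC-S library by a small margin. miR-205-5p, an epithelial miRNA, differed by -1.56 (SE 0.50, adjusted p = 0.118), at 3.44 to 10.3 CPM with caerulein and 12.1 to 34.5 CPM with TLC-S. Its list, with the miR-200 family and miR-203, had 10 members tested, 6 above 0 and 4 below (median 0.08), none passing. miR-708-5p differed by -1.43 (SE 0.53) and miR-154-5p, of the Dlk1-Dio3 locus, by -2.43 (SE 0.93), and both had an adjusted p of 0.216. The caerulein value of miR-154-5p rested on 2, 1 and 0 counts. In the cluster of miR-183, miR-96 and miR-182, of sensory and epithelial cells, miR-182-5p differed by 0.75 (SE 0.27), miR-183-5p by 0.58 (SE 0.23) and miR-96-5p by 0.20 (SE 0.26; -0.12 when scaled by library totals), none passing.

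The series carries the name of miR-21-3p, so both arms of miR-21a were read. The hairpin lies at chr11:86584067-86584158 on the minus strand, in an exon of Vmp1. miR-21a-3p held 5.16, 12.3 and 10.3 CPM with caerulein 100 pM and 0.483, 3.62 and 4.82 CPM with TLC-S 62.5 uM. The groups did not overlap, but the counts were 9, 20 and 9 against 1, 9 and 7, and the difference was 1.65 (SE 0.76, adjusted p = 0.352). The 95% interval ran from 0.08 to 3.22. The controls held 1.45, 2.62 and 5.26 CPM. miR-21a-5p, the major arm, stood at 17516, 20859.9 and 28632 CPM against 22474, 16238 and 10687 CPM and differed by 0.44 (SE 0.26, adjusted p = 0.474). Among 9 listed miRNAs induced in inflammation, 6 were tested, with 3 above and 3 below 0. miR-146a-5p, a brake on NF-kappaB signalling, differed by -0.55 (SE 0.32, adjusted p = 0.460).

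The lower-dose difference was then tested against the corresponding difference at the higher doses, caerulein 100 nM minus TLC-S 250 uM, which uses none of the same libraries. The test of the difference between differences called 0 of 351 miRNAs, with 18 at an unadjusted p under 0.05 (5.13%). DESeq2 likewise called 0, and edgeR without the low-count filter called 1, miR-30b-5p. For miR-30b-5p the lower-dose difference of 1.72 stood beside 0.17 (SE 0.32) at the higher doses, and the gap was 1.55 (SE 0.45, adjusted p = 0.414). At TLC-S 250 uM it held 2469, 1736 and 2163 CPM, more than in any TLC-S 62.5 uM library. miR-3968 stood at 2.51 and 1.12 (SE 0.28, adjusted p = 0.188), with a gap of 1.39 (SE 0.41, adjusted p = 0.414). Its level was 75.4, 66.5 and 92.5 CPM with caerulein 100 nM and 42.5, 35.6 and 31.5 CPM with TLC-S 250 uM. miR-5099 stood at 1.12 and -0.04, with a gap of 1.16 (SE 0.41, adjusted p = 0.910).

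Of the 5 miRNAs that passed at the lower doses, 4 had the same sign at the higher doses. miR-216a-3p gave 0.38 (SE 0.29) and miR-195a-5p -0.32 (SE 0.33) there. The median absolute log2 difference over all 351 was 0.34 at the lower and 0.21 at the higher doses, and the higher-dose comparison itself called 0 miRNAs, with 8 at an unadjusted p under 0.05. Across the 351 miRNAs the lower-dose and higher-dose differences had a Pearson r of 0.29 and a Spearman rho of 0.25, given as a description because miRNAs of the same libraries are not independent replicates.

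**Figure D5:**
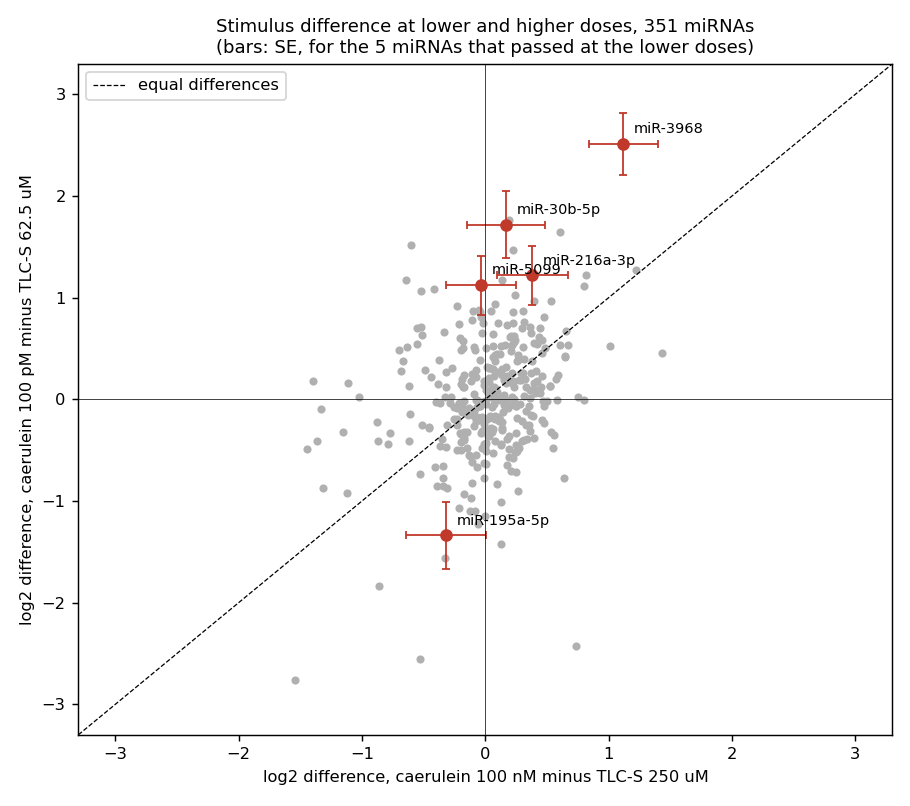
Each point is a miRNA, with the log2 difference between the stimuli at the higher doses on the horizontal axis and at the lower doses on the vertical axis; the dashed line marks equal differences and bars are SE for the 5 miRNAs that passed at the lower doses. miR-30b-5p (0.17, 1.72) and miR-5099 (-0.04, 1.12) lie near the vertical axis, while miR-3968 (1.12, 2.51) is above 0 on both axes.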

How the data were processed

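Small RNA was sequenced from pancreatic acini in 15 libraries of 5 groups. Per the submitters' processing notes, reads were trimmed with cutadapt and aligned with Bowtie to GRCm38 (mm10). Which tool counted the reads is not given in the sources used here. As deposited, the table holds estimated counts per mature miRNA, whole numbers that equal the authors' fractional per-precursor counts summed and rounded (largest difference 0.5). These expected counts were used as deposited. edgeR 4.0.16 (R 4.3.3) fitted 5 group means over all 15 libraries, with TMM scaling and filterByExpr (minimum count 10, minimum total 15). This kept 351 miRNAs, holding at least 99.97% of each library's counts, with 10 residual degrees of freedom. The contrast was caerulein 100 pM minus TLC-S 62.5 uM. The gap between dose levels was a second contrast of the same fit. Benjamini-Hochberg adjustment ran over all 351. The model was also run on counts simulated from its own fit, with known changes added. That check required only that the estimates follow the added changes.

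Named miRNAs were those that passed, the 8 smallest p-values in a direction where fewer than 8 passed, the 5 most abundant, both miR-21a arms, up to 4 abundant members of each list, other arms and seed-sharers of miRNAs that passed, and the 3 smallest p-values of the second contrast. miR-216b-3p, miR-148a-5p, miR-30c-5p, miR-30c-2-3p, miR-30a-3p, miR-125b-5p, miR-125a-5p, miR-351-5p and list members named at 0 were chosen after their values were seen. The members and lists were chosen with earlier results of these data known. The labels do not say whether a replicate number marks a shared preparation. Correlations between deviations of same-numbered lower-dose libraries lay within the range of those with different numbers. These few pairs cannot decide whether a block is needed, and the other groups were not checked. The fit has no block. No 2 libraries of a group agreed within sampling noise (chi-square divided by its degrees of freedom was 66.5 to 419). Hairpin positions are from GENCODE M21 and sequences from RefSeq, both GRCm38. The labels name no batch. Alternatives were 3 other scalings, the 3 most abundant miRNAs left out, 2 other filters, DESeq2 1.42.0, robust dispersion, the replicate block, and 2 smaller sets of libraries. Each library of the groups in a contrast was also left out in turn, and no single control library was.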

Additional observations from a re-analysis of the deposited data

How the results depend on the processing

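The count of 5 calls (4 higher with caerulein, 1 higher with TLC-S) moved by more than 1.5 times under some settings. Calls higher with caerulein were 2 with library totals, 9 with the replicate block and 2 in the 6 libraries alone, and calls higher with TLC-S were 2 with library totals, 4 with no low-count filter, 5 with DESeq2, 5 with the replicate block, 0 in the 6 libraries alone and 4 in the 6 libraries alone with the replicate block. In total this gave 9 calls with no low-count filter, 11 with DESeq2, 14 with the replicate block, 2 in the 6 libraries alone, and 4 under each other scaling, without the 3 most abundant miRNAs, with a mean CPM of at least 10, with robust dispersion and without the control libraries. Leaving out 1 library gave 2 to 11 calls in all (2 to 8 higher with caerulein, 0 to 3 higher with TLC-S): 11 without caerulein replicate 1, 3 without caerulein replicate 2, 2 without caerulein replicate 3, 3 without TLC-S replicate 1, 2 without TLC-S replicate 2 and 10 without TLC-S replicate 3. Whether a replicate number marks a shared preparation is not known. Deviations of same-numbered lower-dose libraries correlated at 0.161, -0.0999 and -0.0621 over 3 pairs. Pairs with different numbers ran from -0.220 to 0.268, so these few pairs cannot decide whether a block is needed. The fit without the replicate block was kept. The 6 libraries alone with the replicate block gave 7 calls. miR-3968 and miR-30b-5p passed under all 18 alternatives, miR-195a-5p under 13, miR-216a-3p under 12 and miR-5099 under 5. The test of the gap between dose levels called 1 miRNA with no low-count filter (miR-30b-5p, 1.51, adjusted p = 0.0355) and 0 in every other setting run. Over 59 miRNAs tracked under the alternatives, 979 values kept direction and side of the threshold, 24 lost a call, 33 gained one and 17 changed sign. The sign changes were, with library totals, miR-216a-5p -0.050, miR-216b-5p -0.10, miR-375-3p -0.11, miR-96-5p -0.12, miR-126a-3p -0.16, miR-126a-5p -0.24 and miR-1843a-5p -0.055, and, in the 6 libraries alone with the replicate block, miR-126a-5p -0.0084. When 1 library was left out, miR-30a-5p ran from -0.275 to 0.018 (above 0 without caerulein replicate 1 or 3), miR-143-3p from -0.203 to 0.170 (above 0 without caerulein replicate 1 or TLC-S replicate 3), miR-200b-3p from -0.188 to 0.199 (above 0 without TLC-S replicate 1), miR-1839-5p from -0.271 to 0.021 (above 0 without TLC-S replicate 3), miR-126a-3p from -0.088 to 0.389 (below 0 without caerulein replicate 3) and miR-126a-5p from -0.201 to 0.262 (below 0 without caerulein or TLC-S replicate 3). The cause of these changes was not tested. Depth limits the low miRNAs: with 3 libraries a group, miRNAs of few counts such as miR-21a-3p and miR-154-5p have intervals several log2 units wide.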

Other observations

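The balance between the arms of single hairpins was read as log2 of 3p over 5p counts within each library (0.5 added to each), a quantity that no scaling between libraries changes. It was computed after the data were seen, for 8 hairpins, and is given with no test. The libraries of the stimuli did not overlap for 3 of them, and no share over all hairpins was computed. These were miR-216a and miR-30b, each with an arm that passed, and miR-30e, whose 3p arm came near the threshold. Their ratios hold arms already known to differ, so the separation is no separate evidence. For miR-216a the ratio was -4.43, -3.61 and -4.39 with caerulein 100 pM and -4.74, -4.80 and -5.71 with TLC-S 62.5 uM, so the 3p arm made up more of the pair in every caerulein library. For miR-30e it was -6.85, -4.88 and -4.69 against -7.92, -6.87 and -6.91, again with no overlap. For miR-30b it ran the other way, at -7.40, -6.14 and -7.22 against -5.29, -6.13 and -5.39, with caerulein replicate 2 and TLC-S replicate 2 almost equal. The 3p arms of miR-216b and miR-217 had mean ratios of -1.72 ± 0.16 and -8.53 ± 0.28 (SD, n = 3) with caerulein, against -2.37 ± 0.83 and -8.78 ± 0.16 (SD, n = 3) with TLC-S, and their libraries overlapped. For miR-148a, where the 3p arm dominates, the means were 7.60 ± 0.66 and 7.45 ± 0.12 (SD, n = 3), with overlap. For miR-195a they were -4.90 ± 2.51 and -6.35 ± 2.31 (SD, n = 3), and for miR-21a -11.23 ± 0.49 and -12.66 ± 2.02 (SD, n = 3), also with overlap.

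Among 28 listed mirtrons and late-numbered miRNAs, 27 were in the table and 18 were tested. Of the 18, 2 passed (miR-3968 and miR-5099), against 1.42% of all miRNAs. The other 16 lay on both sides of 0, 8 above and 8 below. The more abundant miR-1839-5p and miR-1843a-5p differed by -0.12 (SE 0.22) and 0.32 (SE 0.24), the latter by -0.055 when scaled by library totals. Among the genes in GENCODE M21, hairpins of miR-1839-5p, miR-1843a-5p, miR-1843b-5p and miR-3535 overlap exons of other small noncoding RNA genes. Those of miR-3968 and miR-5099 do not. Sources of reads outside those annotated genes were not searched, so this contrast cannot show which reads came from a hairpin. Whether the reads counted for any listed member came from a miRNA hairpin was not tested.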
